A study of Mus musculus with 342 samples.

Results

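CC007/Unc is a line of the Collaborative Cross, a panel of recombinant inbred mice derived from common founder strains. The samples labelled CC007/Unc are 8 of the 342 liver arrays of the series: 4 male mice given TAK-875 by gavage at 600 mg/kg and 4 given the vehicle alone, which was 0.5% methylcellulose in water. The volume was 10 ml/kg, the mice were about 8 to 10 weeks old, and livers were taken 24 h after the single dose. The labels number 4 study pairs in the line, each with 1 treated and 1 vehicle mouse, and a response below is the TAK-875 mouse minus the vehicle mouse of its pair on the log2 scale. The other 334 arrays come from 43 further lines treated the same way, male as well, with 3 or 4 pairs in each, and they serve as the comparison. The mice carry no allele or agent other than their line background and the dose, as far as the labels say. Each line is a single inbred genotype, so the values describe these mice and say nothing of females or of other doses and times. The title of the series writes the drug as TAK-857, whereas the dose labels and the design text write TAK-875.

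TAK-875, or fasiglifam, activates the free fatty acid receptor FFAR1 and was developed as a glucose-lowering drug, and its development ended over liver safety. In liver, fatty acid-like ligands can activate PPARA, the nuclear receptor that switches on genes of fatty acid oxidation. When proteins misfold, heat shock factors raise cytosolic chaperones and the unfolded protein response raises folding and disposal factors of the endoplasmic reticulum. NRF2 raises genes that handle oxidants and electrophiles, and the proteasome degrades ubiquitin-tagged proteins. Those programmes, the drug and bile transporters and the plasma proteins that hepatocytes secrete are followed here in CC007/Unc.

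The tissue label held: 7 of the 8 hepatocyte markers (such as Alb and Apoa1) were measured, with a mean vehicle level of 13.08 (log2) in CC007/Unc, and 0 of them changed with TAK-875. Array medians in the line ran from 5.90 to 6.17, and both extremes lay in pair 3, 5.90 in vehicle and 6.17 with TAK-875. The vehicle and TAK-875 medians were 5.97 and 5.95 in pair 1, 5.99 and 6.09 in pair 2, and 6.09 and 6.11 in pair 4. List means and ranks below use levels that were not centred on these medians. The vehicle arrays correlated with each other at 0.967 to 0.987 across genes, which are not independent replicates. That of pair 4 had the lowest median correlation with the other vehicle arrays, 0.973 against 0.981 to 0.985. The TAK-875 array of pair 3 stood apart, with correlations of 0.936 to 0.957 to the vehicle arrays, against 0.959 to 0.982 for the other TAK-875 arrays. The root mean square response over genes was 0.60, 0.44, 0.75 and 0.45 in pairs 1 to 4, beside a median of 0.47 over all pairs of the series. Across genes, the differences of pairs 1, 2 and 3 correlated with each other at 0.36 to 0.51, whereas those of pair 4 correlated with them at -0.17, -0.12 and -0.05. Whether the vehicle or the TAK-875 mouse of pair 4 sets it apart was not tested. Because the TAK-875 array of pair 3 stood apart, counts of calls are given with and without pair 3. In whole liver, fewer cells of a type and less RNA per cell cannot be told apart.

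TAK-875 changed 432 of 9093 genes in CC007/Unc (4.75%), 213 higher and 219 lower (limma, Benjamini-Hochberg adjusted p below 0.05). Of these, 330 moved the same way in each of the 4 pairs, and 79 changed at least 2-fold, 43 upward and 36 downward. The rises were led by Derl3, which serves disposal of misfolded proteins, the secreted protein Lcn2, the acyl-CoA thioesterase Acot1, Chrna2 and the chemokine Cxcl14; the falls by the organic anion transporter Slc22a7 and the methyltransferase Inmt. Pair 3 carried most of the calls. Without it 30 genes were called (18 higher, 0.198%, and 12 lower, 0.132%; 0.33% in all), all 30 among the 432, whereas 250 were called without pair 1, 286 without pair 2 and 924 without pair 4. With each array centred on its median, which moves the median of all genes from 0.04 to -0.05, 402 genes were called and 29.9% of them were higher, in place of 49.3%. Of the genes named here as changed by TAK-875, the calls of the 21 that held whichever pair was left out and of Acot1, Aldh3a2, 4930480K15Rik and Akr1c18 held without pair 3, and those of the others did not. When the spread came from the 4 CC007/Unc pairs alone, 2 genes were called, Cxcl14 and Derl3, both with adjusted p = 0.0499.

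**Figure D1:**
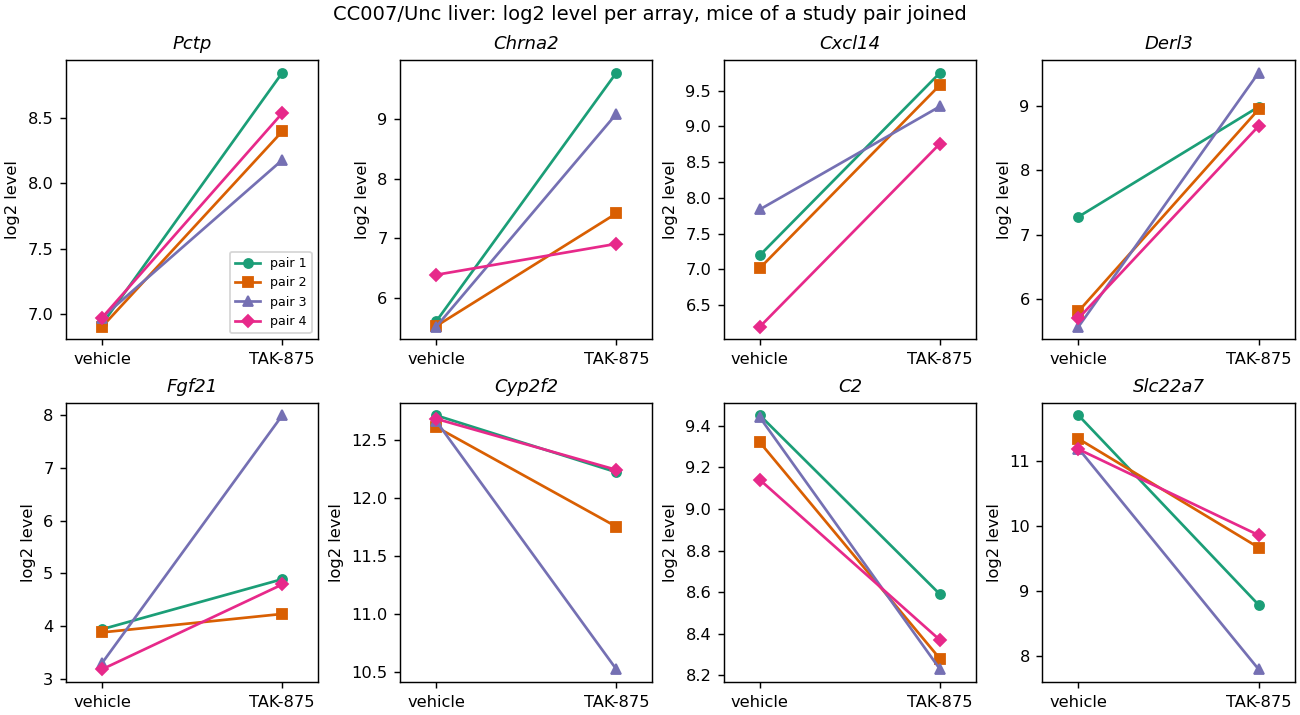
Log2 level of 8 genes on each CC007/Unc array, with the vehicle and TAK-875 mouse of a study pair joined by a line. Pctp rises from 6.90 to 6.97 in vehicle to 8.18 to 8.85 with TAK-875, and in Fgf21 and Cyp2f2 the TAK-875 mouse of pair 3 lies far from the other 3.

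The bases before the start site are shown for 4 genes of the protein folding and oxidant programmes that rose in CC007/Unc. The letters of a motif known for each programme are in capitals, searched as its textbook consensus. Only risen genes in which the motif was found are shown, so each holds a match by choice. Each stretch is 250 bases from RefSeq (GRCm38.p6), read 5′ to 3′ toward the start site in the direction of the gene. In Derl3 and Dnajc3 the capitals mark the endoplasmic reticulum stress response element on either strand, in Srxn1 the antioxidant response element core TGANTCAGC and in Hsph1 the heat shock element unit TTCNNGAA.
Derl3, chr10:75893148-75893397, plus strand: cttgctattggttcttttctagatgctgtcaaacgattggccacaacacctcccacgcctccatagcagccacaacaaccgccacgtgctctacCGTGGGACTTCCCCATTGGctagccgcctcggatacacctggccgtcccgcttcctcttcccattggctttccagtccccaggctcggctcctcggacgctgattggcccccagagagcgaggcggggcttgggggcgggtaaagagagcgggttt
Dnajc3, chr14:118937682-118937931, plus strand: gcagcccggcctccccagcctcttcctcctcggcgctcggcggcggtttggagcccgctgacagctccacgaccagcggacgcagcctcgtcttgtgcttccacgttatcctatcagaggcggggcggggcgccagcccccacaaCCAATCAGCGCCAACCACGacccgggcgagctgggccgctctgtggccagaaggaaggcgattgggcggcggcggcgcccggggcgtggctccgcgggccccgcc
Srxn1, chr2:152105274-152105523, plus strand: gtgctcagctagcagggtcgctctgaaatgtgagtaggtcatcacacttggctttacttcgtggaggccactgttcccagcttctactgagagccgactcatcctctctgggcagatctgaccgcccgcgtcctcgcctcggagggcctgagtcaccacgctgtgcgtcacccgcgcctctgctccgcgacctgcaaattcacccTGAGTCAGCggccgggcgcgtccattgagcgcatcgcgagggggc
Hsph1, chr5:149636337-149636586, minus strand: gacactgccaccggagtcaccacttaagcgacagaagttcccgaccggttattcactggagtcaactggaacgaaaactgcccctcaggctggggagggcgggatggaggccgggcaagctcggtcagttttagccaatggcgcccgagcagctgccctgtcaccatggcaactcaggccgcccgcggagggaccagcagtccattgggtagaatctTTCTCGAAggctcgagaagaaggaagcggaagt
The capitals begin 156 bases before the start in Derl3, 105 in Dnajc3, 45 in Srxn1 and 33 in Hsph1. Of 32851 promoter windows of that length, 0.11% held the first motif, 1.02% the second and 7.17% the third, searched on both strands. Counted by gene, as the lists are, the shares were 0.13%, 1.17% and 8.11%. Among unfolded protein response genes with a promoter window, 10 of 28 held the first motif. It was found in 2 of the 3 measured members that rose in CC007/Unc. Risen genes are counted here whether or not they had a window. The second stood in 4 of 22 NRF2 targets and 1 of the 5 that rose, and the third in 4 of 21 chaperone genes and 1 of the 8 that rose. These matches describe letters in a window and were not tested against the responses.

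Of the genes called with all 4 pairs, 21 were also called whichever pair was left out (0.231% of genes), 12 higher and 9 lower. They were singled out after their values had been seen. Pctp, which carries phosphatidylcholine between membranes, stood first among the rises by p. Its vehicle levels were 6.92, 6.90, 6.97 and 6.97 in pairs 1 to 4, and its TAK-875 levels 8.85, 8.40, 8.18 and 8.54. The groups did not overlap, as for 8.94% of all genes, and the response was 1.56 ± 0.30 (SD, n = 4; 2.94-fold, adjusted p = 1.8e-07 by limma, 7.5e-06 without pair 3). Pctp was higher in each of the 43 other lines too, with a mean of 0.86 ± 0.49 (SD over lines).

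Chrna2 encodes a subunit of nicotinic acetylcholine receptors. Vehicle mice gave 5.61, 5.53, 5.52 and 6.39 and TAK-875 mice 9.78, 7.42, 9.09 and 6.91. The treated mice of pairs 1 and 3 were far above the rest, and the groups did not overlap. The response was 2.54 ± 1.65 (SD, n = 4; adjusted p = 5.2e-05 by limma, 0.0201 without pair 3), the highest of the 44 lines; CC007/Unc was the highest or lowest line for 5.29% of all genes. Cxcl14, a chemokine made by epithelial cells, went from 7.20, 7.02, 7.84 and 6.20 in vehicle to 9.75, 9.58, 9.28 and 8.76. Every treated mouse was above every vehicle mouse, and the response of 2.28 ± 0.56 (SD, n = 4; adjusted p = 0.00264 by limma) was smallest in pair 3, at 1.44. The other lines averaged 0.01 ± 0.70 for Cxcl14, and 19 of 43 were higher with TAK-875.

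Among the other 9 of the 12 rises, Agt, the angiotensin precursor, rose by 0.86 ± 0.24 (SD, n = 4; adjusted p = 5.2e-05), from 10.99 to 11.43 in vehicle to 11.81 to 12.63 with the drug. Afp, the fetal counterpart of albumin, rose by 1.15 ± 0.47 (adjusted p = 0.00039), from 5.07 to 5.69 in vehicle to 5.78 to 6.94. Anxa7, a phospholipid-binding annexin, rose by 0.92 and Creg1, a secreted and lysosomal glycoprotein, by 0.45. Entpd5, a nucleotidase of the endoplasmic reticulum, rose by 0.71, and each of its 5 probe sets was called, at 0.55 to 0.76. Zwint, a kinetochore protein, rose by 0.73, the SNARE Vti1a by 0.80, the dynein cofactor Nudc by 0.54 and Sprr1a, a cornified envelope protein, by 1.46. The other probe sets of Vti1a and Nudc read -0.06 and 0.14, and Nudc missed the threshold with centred arrays (adjusted p = 0.0614).

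The 9 falls called in every leave-out were C2, F10, F7, Cyp2f2, Cyp2u1, Prdx2, Psme1, Cd163l1 and Ces2b. C2, a complement protease, had vehicle levels of 9.45, 9.32, 9.44 and 9.14 and TAK-875 levels of 8.59, 8.28, 8.23 and 8.37. The groups were apart in each pair, with a response of -0.97 ± 0.19 (SD, n = 4; adjusted p = 9.6e-07 by limma), the lowest of the 44 lines. Coagulation factor F10 changed by -0.63 ± 0.33 (adjusted p = 1.8e-08) and its other 2 probe sets by -0.92 and -0.81. Coagulation factor F7 changed by -0.77 ± 0.46 (adjusted p = 3.4e-06). Among 37 measured complement and coagulation genes, 5 fell and 0 rose (C2, F7, F10, Masp2 and Mbl2), where 2.41% of all genes fell. Without pair 3, 3 of the 37 fell, where 0.132% of all genes did. The median of the 37 was -0.09, against 0.04 for all genes. In the other lines 21 of the 37 fell, where 11.5% of all genes did. The median of the 37 there was -0.11, and the mean of CC007/Unc ranked 24 of the 44 lines.

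Cyp2f2, a cytochrome P450 abundant in periportal hepatocytes, read 12.71, 12.61, 12.66 and 12.68 in vehicle mice and 12.22, 11.75, 10.52 and 12.24 in TAK-875 mice. All treated values were below all vehicle values, and pair 3 fell by 2.14. The response was -0.98 ± 0.79 (SD, n = 4; adjusted p = 1.7e-09 by limma, 0.00457 without pair 3). Cyp2u1, another P450, changed by -1.26 ± 1.08 (adjusted p = 1.4e-05) with pair 2 at 0.21, so it fell in 3 of 4 pairs. Prdx2, a peroxide-reducing enzyme, changed by -0.69 ± 0.44 (adjusted p = 2.5e-06), although its second probe set read -0.17. Psme1, a subunit of the PA28 proteasome activator, changed by -0.63 ± 0.35, the scavenger receptor Cd163l1 by -1.16 ± 0.30 and the carboxylesterase Ces2b by -1.05 ± 0.83. Ces2b lay between 2.34 and 4.53 on all 8 arrays, near the low end of the scale.

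**Figure D2:**
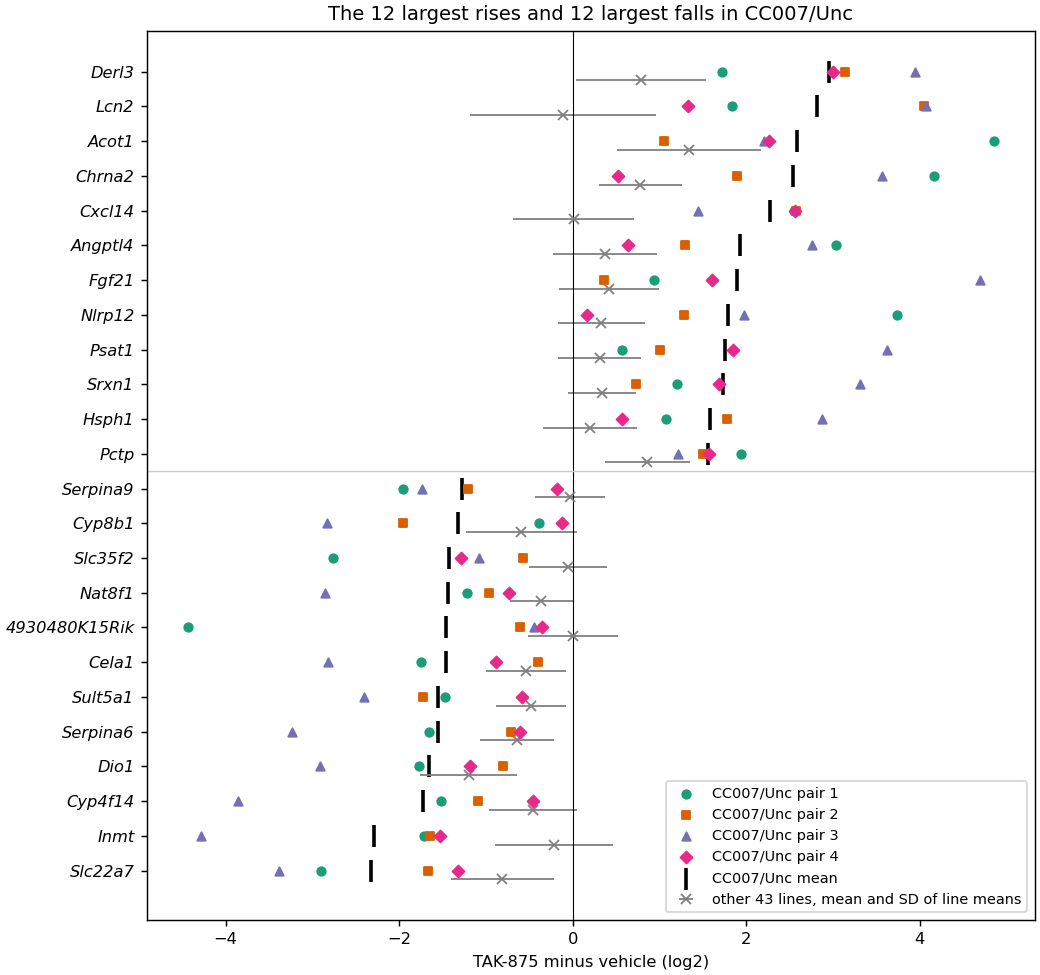
Response in log2 units (x axis) of the 12 genes that rose most and the 12 that fell most in CC007/Unc among called genes moving the same way in all 4 pairs, by pair, with the mean of the line and the mean and SD over the other 43 line means. Pair 3 (triangles) is the most extreme in many rows, as for Fgf21 and Inmt, whereas Pctp lies between 1.22 and 1.94 in all pairs.

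Among the largest rises, Derl3 gave 7.28, 5.81, 5.57 and 5.70 in vehicle and 8.99, 8.95, 9.52 and 8.69 with TAK-875. The groups did not overlap, and the response of 2.95 ± 0.92 (SD, n = 4; 7.74-fold, adjusted p = 0.00073 by limma) was the highest of the 44 lines; the adjusted p was 0.0732 without pair 3. Lcn2, a siderophore-binding protein of the acute phase that neutrophils also carry, rose by 2.82 ± 1.45 (adjusted p = 0.0374, 0.483 without pair 3), from 6.35 to 7.35 in vehicle to 7.68 to 10.92. It was the only called gene of 29 acute phase genes and of 8 neutrophil markers, and the other 7 neutrophil markers had responses of -0.53 to 0.09. In the other lines Lcn2 averaged -0.11 and ranged from -3.08 to 1.93.

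As a list, proteasome subunits moved by little, and without array centring their mean was nearly the same in each pair. In pair 3 the array median itself was 5.90 in vehicle and 6.17 with TAK-875. Of 31 measured, 13 rose and 1, Psme1, fell, where 2.34% of all genes rose and 2.41% fell. Their mean response was 0.37, 0.26, 0.30 and 0.27 in pairs 1 to 4. Without centring, the line mean of 0.30 was the highest of the 44 lines, with and without pair 3 (others -0.07 to 0.25). Psmd2, a scaffold subunit of the regulatory particle, rose by 0.43 ± 0.04 (SD, n = 4), and Psmd4, a ubiquitin receptor, by 0.47 ± 0.09 from 10.38, 10.45, 10.70 and 10.41 to 10.89, 10.78, 11.22 and 10.93. Psmd6, Psmd12 and Psmd14, the last a deubiquitinase, rose with more spread between pairs, by 0.67 ± 0.38, 0.69 ± 0.72 and 0.75 ± 0.56 (SD, n = 4). The second probe set of Psmd6 read 0.43. The calls depended on settings: 0 of the 13 passed without pair 3, where the uncentred list mean was again 0.30. With centred arrays 3 of 31 rose, as did 120 of all 9093 genes, and the list median was 0.25 in place of 0.34. Pair means and the rank among the lines were not computed with centred arrays. In the other lines 24 of the 31 rose, where 14.6% of all genes did.

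The list of heat shock and chaperone genes, mostly cytosolic but with the mitochondrial Hspa9 and Hspe1, had the highest mean response of the 44 lines, 0.66, with pairs at 0.65, 0.63, 1.17 and 0.20. All 27 measured members were above 0, as were 5046 of all 9093 genes. Of the 27, 8 rose, where 2.34% of all genes did. The 8 included Hsph1, Hspa4l, Dnajb1 and the chaperonin subunits Cct2, Cct3 and Cct8. The second probe set of Dnajb1 read 0.45. Hsph1, a nucleotide exchange factor for HSP70, went from 7.98, 7.64, 7.64 and 8.50 to 9.06, 9.42, 10.52 and 9.07. Treated mice were above all vehicle mice, and the response was 1.58 ± 1.00 (SD, n = 4; adjusted p = 0.014 by limma, 0.515 without pair 3). Without pair 3, 0 of the 27 were called, and the list mean was 0.49, rank 4 of the 44 lines.

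The unfolded protein and integrated stress responses were highest in pair 3. Of 34 unfolded protein response genes 3 rose, Derl3, Dnajc3 and the disulfide isomerase Pdia4, and 0 fell. Over all genes, 2.34% rose and 2.41% fell. The mean of this list was 0.02, 0.34, 0.86 and 0.14 in the pairs, and 0 members were called without pair 3. Of the 5 Dnajc3 probe sets only the one used passed. Of 26 integrated stress response genes 3 rose, Fgf21, Psat1 and Ddit3, where 2.34% of all genes did. The list means were -0.04, -0.07, 1.00 and 0.47 in the pairs, and 0 of the 26 were called without pair 3. Fgf21, a liver hormone of fasting and stress, read 3.94, 3.88, 3.30 and 3.18 in vehicle and 4.89, 4.23, 8.00 and 4.79 with TAK-875. The treated mouse of pair 3 was far above the others, and the response of 1.90 ± 1.93 (SD, n = 4; adjusted p = 0.0212 by limma) had an adjusted p of 0.757 without that pair. Psat1, an enzyme of serine synthesis, rose by 1.76 ± 1.35 (adjusted p = 0.00814, 0.56 without pair 3).

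Among 27 NRF2 targets 5 rose and 1 fell, where 2.34% of all genes rose and 2.41% fell. The list mean of 0.35 ranked 2 of the 44 lines (0.31 and rank 2 without pair 3, with 0 called). Srxn1, which repairs oxidised peroxiredoxins, read 6.94, 7.07, 7.32 and 7.09 in vehicle and 8.14, 7.80, 10.62 and 8.79 with TAK-875. The groups did not overlap, its response was 1.73 ± 1.12 (SD, n = 4; adjusted p = 3.4e-05 by limma, 0.0746 without pair 3), and its other 3 probe sets rose by 0.97, 1.78 and 2.21. Nqo1, a quinone reductase, rose by 1.11, Ugdh by 0.86, the glutathione reductase Gsr by 0.51 and the epoxide hydrolase Ephx1 by 0.48. Taldo1, of the pentose phosphate pathway, fell by 0.51.

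PPARA targets rose in CC007/Unc as they did elsewhere. Of 39 measured, 14 rose and 0 fell, where 2.34% of all genes rose and 2.41% fell. The median of the 39 was 0.46 against 0.30 in the other lines, where 33 of them and 14.6% of all genes rose. By the mean of the list the line ranked 7 of 44. The list mean was 0.96, 0.19, 0.81 and 0.45 in pairs 1 to 4. Without pair 3, 3 were called (Pctp, Acot1 and Aldh3a2), where 0.198% of all genes rose. With centred arrays 8 of the 39 rose, as did 120 of all 9093 genes. Acot1 read 4.10, 4.67, 5.04 and 4.57 in vehicle and 8.96, 5.72, 7.24 and 6.83 with TAK-875, highest in pair 1. Its response was 2.59 ± 1.61 (SD, n = 4; 6.03-fold, adjusted p = 0.00281 by limma), and without pair 1 it was 1.84 and no longer called (adjusted p = 0.138). The call of Aldh3a2 was lost without pair 1 as well (0.133). Angptl4, an inhibitor of lipoprotein lipase, rose by 1.93 ± 1.15 (adjusted p = 0.00747, 0.26 without pair 3), with its second probe set at 0.14. The carnitine carrier Slc22a5 rose by 1.30, Vnn1 by 1.37, the fatty aldehyde dehydrogenase Aldh3a2 by 1.17 and the peroxisomal enzyme Ehhadh by 0.79. The difference of the CC007/Unc response from the other lines was called for 0 of the 39.

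Mitochondrial respiratory chain genes fell in 15 of 58 and rose in 0, where 2.41% of all genes fell and 2.34% rose. The line mean of -0.17 was the lowest of the 44 lines. Pair 3 held the shift: the pairs read -0.00, -0.15, -0.49 and -0.05, and without pair 3 the mean was -0.07, rank 30, with 0 genes called. Sdhd, a membrane anchor of succinate dehydrogenase, changed by -0.68 ± 0.51 (SD, n = 4; adjusted p = 0.00352 by limma, 0.478 without pair 3), and Ndufb7 of complex I by -0.41 ± 0.29 (adjusted p = 0.00341). Male-biased liver genes also had the lowest mean of the lines, -0.65. Of 20, 5 were lower (Cyp2f2, Cyp2u1, Gna14, Nudt7 and Selenbp2) and 0 higher, beside 2.41% and 2.34% of all genes. The other 2 Gna14 probe sets read -0.38 and 0.82, the latter in the opposite direction. Without pair 3 the mean was -0.45, rank 42. Then 2 were called, Cyp2f2 and Cyp2u1, both lower, where 0.132% of all genes were lower. The mean vehicle level of the male-biased genes in CC007/Unc was the highest of the 44 lines, at 10.33 against 9.53. The median of their vehicle differences was only 0.27, and the largest were those of Moxd1 (5.14), Susd4 (2.21) and Cyp2u1 (1.89). Response and vehicle level share the vehicle arrays, and their relation was not tested.

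**Figure D3:**
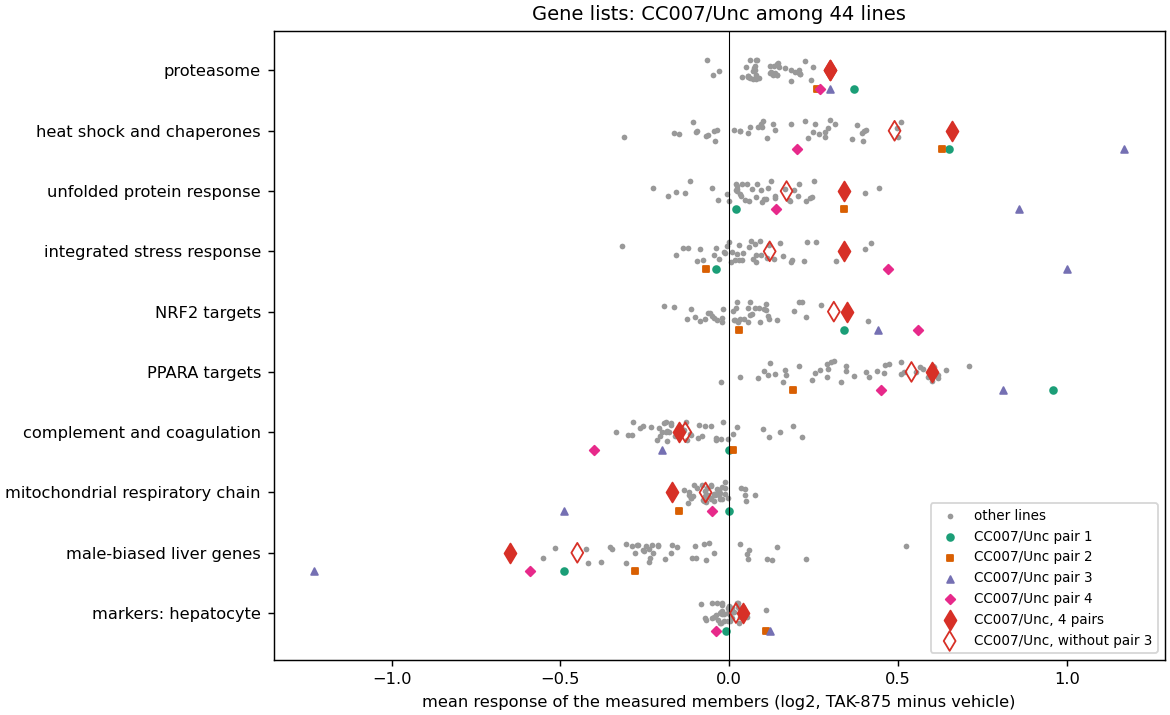
Mean response over the measured members of 10 gene lists (x axis, log2), with each of the other 43 lines as a grey point, CC007/Unc as a filled diamond with all pairs and an open diamond without pair 3, and its 4 pairs below. Arrays are not centred here. CC007/Unc is highest for the proteasome with and without pair 3, whereas for the respiratory chain the open diamond lies among the other lines.

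Drug and bile transport genes changed in both directions. Slc22a7, a basolateral carrier of organic anions, read 11.70, 11.34, 11.19 and 11.18 in vehicle and 8.79, 9.67, 7.80 and 9.86 with TAK-875. All treated mice were below all vehicle mice, and the response of -2.32 ± 0.98 (SD, n = 4; 5.00-fold lower, adjusted p = 0.00025 by limma, 0.0537 without pair 3) was the lowest of the 44 lines. Its vehicle level was also the highest of the lines, where the median of the others was 9.56. That level and the response share the vehicle arrays, and their relation was not tested. Abcb4, which exports phospholipid into bile, rose by 0.99 ± 0.51 (adjusted p = 0.00835, 0.224 without pair 3), the largest rise of the lines, and Slc47a1, an exporter of cations, fell by 0.76. Cyp8b1, the enzyme that sets the share of cholic acid among bile acids, fell by 1.32 (adjusted p = 0.028, 0.699 without pair 3). The bile salt export pump Abcb11 differed by 0.30 ± 0.90 (adjusted p = 0.692), the conjugate pump Abcc2 by 0.48 ± 0.50 (0.247), the bile acid importer Slc10a1 by -0.12 ± 0.52 (0.727) and the bile acid synthesis enzyme Cyp7a1 by -0.33 ± 1.32 (0.866), none past the threshold. Of 30 CAR and PXR targets 3 rose, Cyp3a11 among them at 0.60, and 1 fell, Sult5a1 at -1.55, where 2.34% of all genes rose and 2.41% fell; without pair 3, 0 of the 30 were called in either direction.

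Other large falls were Inmt at -2.29 ± 1.33, the fatty acid hydroxylase Cyp4f14 at -1.73 ± 1.48, the thyroid hormone deiodinase Dio1 at -1.66 ± 0.92 and the corticosteroid carrier Serpina6 at -1.55 ± 1.21 (SD, n = 4). None of these 4 passed without pair 3, where their adjusted p lay between 0.347 and 0.567. Nat8f1 fell by 1.44, Slc35f2 by 1.42, the elastase Cela1 by 1.46 and Serpina9 by 1.27. For 4930480K15Rik the fall of 1.46 came from pair 1, whose vehicle mouse read 6.36 where the other 7 arrays read 1.88 to 2.57. Of 17 cholesterol synthesis genes 0 were called in CC007/Unc, with pair means of -0.18, 0.56, -1.05 and 0.40, and the difference from the other lines was called for 0. Of 19 circadian clock genes 0 were called for the response and 0 for the difference, with a mean of 0.25 in the line and 0.17 in the others.

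Most marker lists of other liver cells had few calls. Of 19 endothelial markers 2 fell, Dnase1l3 and Clec4g, of 14 stellate and fibroblast markers 1, Bgn, and of 16 Kupffer and macrophage markers 0. The share that fell over all genes was 2.41%. Without pair 3, 0 of the endothelial and 0 of the stellate markers were called. The 3 measured red blood cell markers averaged -0.52 and the 6 B cell markers -0.53, both lowest of the 44 lines, with 0 called in either. The pair means of the B cell markers were -0.39, -0.44, -0.71 and -0.58. The MHC class II genes among them, Cd74, H2-Aa and H2-Ab1, read -0.77, -0.73 and -1.37, and Cd79a, Cd22 and Jchain -0.02, -0.11 and -0.16. Their part in other results was not tested.

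The CC007/Unc response was then set against the other lines. The mean of the 43 other lines differed from 0 for 2376 genes (26.1%), 1329 higher and 1047 lower. In CC007/Unc 80.8% of these had the same sign, against 63.4% of all genes, and 300 of the 432 calls were shared (69.4% of the CC007/Unc calls, 12.6% of the others'), 296 in the same direction. Across genes the correlation of the line with the others was 0.49, and 0.30, 0.21, 0.36 and 0.34 for pairs 1 to 4. The root mean square response of the line, 0.36, ranked 7 of 44 (0.18 to 0.45 over lines), and 0.31 without pair 3, rank 19. Of the strongest genes of the other lines, Dbp, a clock output factor with 1.33 there, read 0.83 ± 1.35 in CC007/Unc (SD, n = 4; adjusted p = 0.593 by limma), and Acot3 read 1.42 ± 1.01 against 1.14 (adjusted p = 0.223).

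The difference itself was called for 88 genes (0.968%), 37 responding higher in CC007/Unc (0.407%) and 51 lower (0.561%), and for 70 of them CC007/Unc was the highest or the lowest line. These calls did not hold without pair 3, where 0 were left (limma). There, 401 of 9093 genes had an unadjusted p below 0.05 by limma, which is a smaller share than 0.05. The calls for the difference numbered 57 without pair 1, 38 without pair 2 and 520 without pair 4. With centred arrays 32 were called, of which 28.1% were higher in place of 42.0%. Without the study pair as a block 36 were called, and with each line mean taken as a single value 2. The largest positive difference among the called genes was that of Cxcl14, 2.27 (adjusted p = 0.014), followed by Chrna2 at 1.75 (0.0364, and 0.057 with centred arrays). Srxn1 differed by 1.40 (0.00642) and Acnat2, an acyltransferase, by 1.30 (0.0463). Acnat2 read 5.48, 5.58, 6.67 and 5.84 in vehicle and 7.28, 7.01, 7.98 and 6.90 with TAK-875, each treated mouse above all vehicle mice; the adjusted p of its response was 0.0069, 0.0654 without pair 1 and 0.0831 without pair 3. Gucy2c, Tmpo, Rbm33, Acot10 and Rhoq differed by 1.00 to 1.11; the second probe sets of Tmpo and Rbm33 differed by 0.09 and 0.05, and Rhoq rose in pair 3 by 3.05 and in the others by 0.07 to 0.52.

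The lower differences were led by Inmt, -2.08 (adjusted p = 0.0343). Cd163l1 differed by -1.13 (0.00458), Rian, a noncoding RNA of an imprinted cluster, by -1.11 (0.0439), Nat8f1 by -1.08, Ces2b by -1.07 (0.00019) and the P450 Cyp2c23 by -1.02. Relative to the other lines, the ammonium transporter Rhbg fell by 1.00 (0.0439). Rhbg read 8.91, 8.89, 8.98 and 8.77 in vehicle and 7.82, 7.38, 7.46 and 8.20 with TAK-875, with no overlap. Its vehicle level was the highest of the lines (others 3.91 to 8.36), and so were those of Cd163l1 and Rian. These levels and the responses share the vehicle arrays, and their relation was not tested. Cyp2f2 differed by -0.86 (adjusted p = 6.1e-07), C2 by -0.67 (0.00838) and F10 by -0.46 (0.00042).

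**Figure D4:**
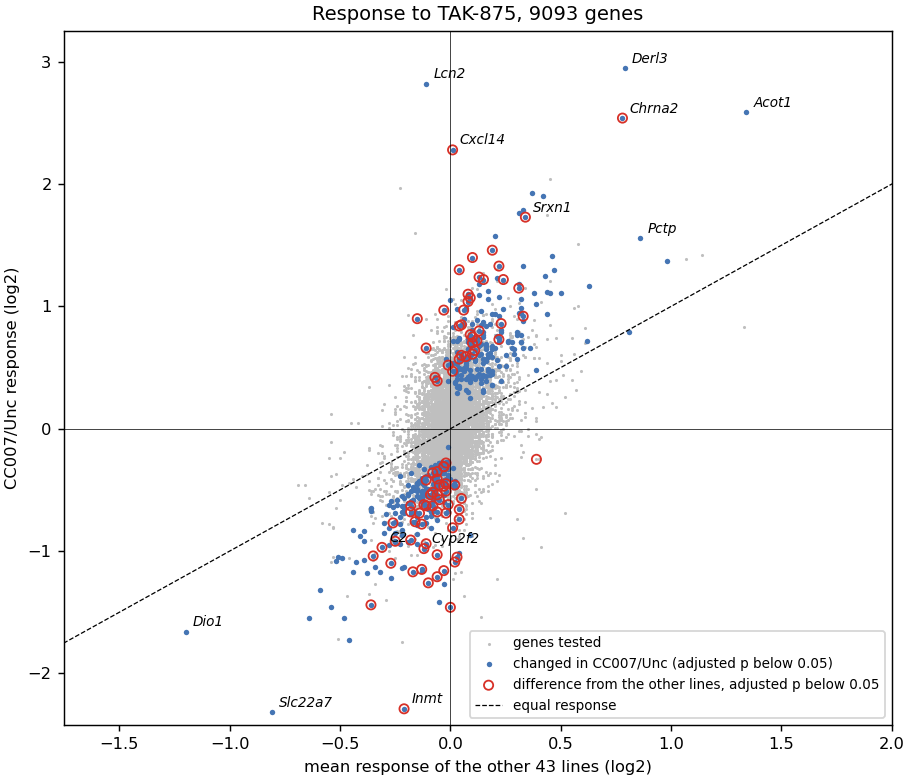
CC007/Unc response (y axis) against the mean response of the other 43 lines (x axis), both log2, for 9093 genes, with the genes called in CC007/Unc filled and those called for the difference circled; the dashed line marks equal response. Cxcl14 lies at 2.28 against 0.01 and Inmt at -2.29 against -0.21, whereas Dio1 lies low on both axes.

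The vehicle livers of CC007/Unc differed from the other lines for 1771 genes (19.5%), 997 higher and 774 lower, of which 96 were at least 2-fold higher and 82 at least 2-fold lower. Leaving out each vehicle mouse gave 1048 to 1860 genes, and 760 were called throughout, 434 higher and 326 lower. With centred arrays 46.2% of 1627 calls were higher, in place of 56.3%. These calls set the line against the mean of the others; 154 of the higher genes were at the top of the 44 lines and 93 of the lower at the bottom, and with line means as single values 7 were called.

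Sult1e1, the estrogen sulfotransferase, read 7.52, 6.55, 6.72 and 8.31 in the vehicle mice, above every other line (2.76 to 6.05, median 3.04), a difference of 4.09 (adjusted p = 5.3e-28 by limma). Moxd1, a monooxygenase, read 10.23, 9.67, 9.14 and 10.68, the highest of the lines, where the median of the others was 4.22 and the highest 9.20. Gsn, the actin-severing gelsolin, read 11.71, 11.10, 11.41 and 11.18, against a median of 6.66 and a maximum of 11.54, and its 4 probe sets differed by 4.62 to 5.89. Obp2a, an odorant-binding protein, differed by 5.42 and ranked 7 of 44, so some lines were higher. Hamp2, a hepcidin, differed by 3.45, Atp4a, a proton pump subunit, by 2.65, Elobl by 2.60 and Susd4 by 2.21. Ugt3a2 differed by 3.12 from the mean of the others, but their median of 10.66 lay close to the CC007/Unc mice, at 10.90 to 11.19.

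Of 48 measured P450 genes, a set chosen after the values were seen, 15 were lower and 9 higher in vehicle than in the other lines. Over all genes, 8.51% were lower and 11% higher. The largest positive differences were those of Cyp2u1 at 1.89 (adjusted p = 3.6e-19 by limma), Cyp46a1 at 1.67 (2.4e-08) and Cyp2c37 at 1.63 (2.5e-06). Cyp2c39 read 2.75 to 3.31 where the median of the other lines was 7.82, and ranked 40 of 44. Cyp2b10, the usual marker gene of the receptor CAR, read 3.77 to 5.52 against 7.66, and Cyp3a13 read 5.45, 5.52, 5.77 and 6.11, the lowest of the lines (others 5.74 to 9.68). The uridine kinase Uck1 read 2.42 to 3.82 against 7.10, the lowest as well, and with line means as single values it remained called (adjusted p = 0.0356), as did Sult1e1, Gsn and Rian. The organic anion transporter Slco1a4 read 2.43 to 2.95 against 5.39, Rad51b 2.89 to 3.49 against 5.96, Fam25c 4.39 to 5.86 against 8.44, Dct 2.54 to 3.69 against 6.83 and Gm4788 2.91 to 3.92 against 8.45. Mt1, a metallothionein, read 6.29 to 7.75 against 9.96, but its second probe set differed by -0.34 in place of -2.75.

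**Figure D5:**
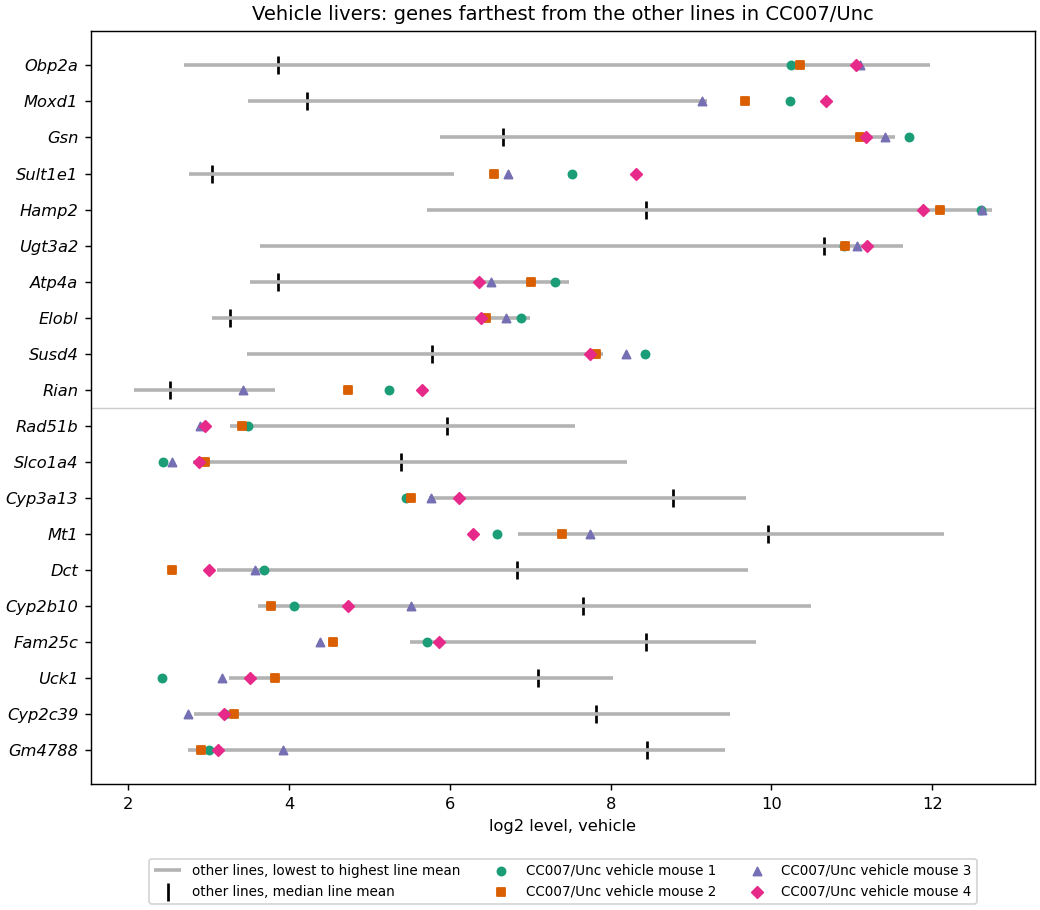
Log2 level in vehicle livers (x axis) of the 10 genes farthest above and the 10 farthest below the mean of the other lines, with each CC007/Unc vehicle mouse as a point, the range of the other 43 line means as a bar and their median as a tick. Sult1e1 lies above the whole range of the other lines, whereas for Ugt3a2 the mice lie close to the median of the others.

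By list, 13 of 39 PPARA targets were lower in vehicle CC007/Unc livers and 3 higher, where 8.51% of all genes were lower and 11% higher. Angptl4 was lowest of the lines, at 6.16 to 7.24 against a median of 8.44, but its second probe set differed by -0.19 in place of -1.66. Acot1 differed by -1.97 and Aldh3a2 by -0.93. The 12 measured genes of the FXR and FGF15/19 axis had the lowest mean of the lines in vehicle, 8.45 against 8.74, with 7 lower and 1 higher. The lower genes were led by the bile acid synthesis enzymes Cyp7a1, at -1.76, and Cyp8b1, and included the export pump Abcb11 at -0.61. The higher gene was Nr0b2 at 0.62. Members of this list differ in role, so its mean gives no direction for FXR activity, which was not tested. Among male-biased genes 9 of 20 were higher and 0 lower, led by Moxd1, Susd4 and Cyp2u1.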

How the data were processed

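Liver RNA was measured on Affymetrix 3′ expression arrays, 1 array per mouse. The authors deposited log2 levels, 1 per probe set and array; the submitters' processing notes name RMA and Affymetrix Power Tools without versions. Of 16397 probe sets, 13083 name 1 gene, 261 several and 3053 none in the platform annotation. The brightest probe set stood for each of 9093 genes. Line differences in sequence under the probes were not analysed here.

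Pair differences of all 171 study pairs were fitted with limma 3.58.1 (R 4.3.3; lmFit, eBayes with trend, 1 mean per line, 127 residual degrees of freedom, two-sided), so that all lines share the spread, and Benjamini-Hochberg adjusted over all genes at 0.05. The mean of CC007/Unc was tested against 0 and against the average of the 43 other line means. Vehicle arrays had the same contrast, and the other lines were tested on their 43 line means. The pairing comes from the labels, which say that mice of a line were treated in pairs; deviations of paired mice from their group means correlated at -0.385 to 0.09. On simulated data with 9093 genes, 24% of log2 responses of 0.5 were recovered, 78% of 1 and 96% of 1.5, and for the difference from the other lines 26%, 78% and 96%. Of 157 calls, 8 were false for the response and 7 for the difference. The simulated pairs were independent, normal and equal in spread within a gene, whereas the CC007/Unc pairs were unequal, so the rates hold for that setting only. No source says more than 1 sample per mouse, and the number of arrays limits the precision.

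The 43 gene lists, with 773 of 1059 entries measured, and the members were chosen with earlier results of these data known; no set test was run. Named genes are the 12 largest rises and falls moving alike in all 4 pairs, the 8 largest differences each way, the 10 most extreme vehicle genes each way, the strongest genes of the other lines, up to 4 per list, and 4 bile genes. Genes called in every leave-out were added after their values were seen. Alternatives were other scaling, probe set rules, a filter on the dimmest 25%, eBayes without trend, no pairing, other spreads, and each pair left out.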

Additional observations from a re-analysis of the deposited data

Results flagged for a closer look

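The response of a single CC007/Unc pair stood far from the other 3 in 10 of 222 checks on named genes and lists (by Dixon's ratio of the gap to the range, which chance passes in about 1 of 20 checks). In pair 1 these were 4930480K15Rik at -4.44 (others -0.61 to -0.35), Cyp3a11 at 1.09 (0.38 to 0.48), Slc13a3 at -1.06 (-0.47 to -0.36) and the mean of the gluconeogenesis and fasting genes at 0.26 (-0.17 to -0.10). In pair 3 they were Inmt at -4.29 (others -1.71 to -1.53), Rhoq at 3.05 (0.07 to 0.52), Ddit3 at 2.27 (0.37 to 0.65), Ier2 at -1.16 (-0.41 to -0.35) and Cxcl14 at 1.44 (2.55 to 2.57). Sult1e1 in pair 4 read -0.93 where the other pairs read 1.42 to 1.87.

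The response of 35 named genes differed between CC007/Unc and the mean of the other lines (limma, adjusted p below 0.05 for the difference), and 0 of these differences were called without pair 3. Higher in CC007/Unc were Cxcl14 by 2.27, Chrna2 by 1.75, Srxn1 by 1.40, Acnat2 by 1.30, Sprr1a by 1.28, Gucy2c by 1.11, Tmpo by 1.07, Rbm33 by 1.05, Acot10 by 1.03, Rhoq by 1.00, Afp by 0.84, Vti1a by 0.67, Agt by 0.62, Anxa7 by 0.58 and Zwint by 0.52. Lower were Inmt at -2.08, 4930480K15Rik at -1.46, Cyp2u1 at -1.16, Atp4a at -1.14, Cd163l1 at -1.13, Rian at -1.11, Nat8f1 at -1.08, Ces2b at -1.07 and Cyp2c23 at -1.02, and relative to the other lines Rhbg fell by 1.00. Smaller differences were those of Cyp2f2 at -0.86, C2 at -0.67, Sdhd at -0.62, Prdx2 at -0.55, Psme1 at -0.52, F7 at -0.50, F10 at -0.46, Ndufb7 at -0.35, Fbp1 at -0.31 and Rps27l at -0.27.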

How the results depend on the processing

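Leaving out single CC007/Unc pairs gave 30 to 924 genes for the response (432 with all), 0 to 520 for the difference from the other lines (88) and 1048 to 1860 for the vehicle level (1771), each lowest without pair 3 and highest without pair 4. The spread of the 4 pairs alone left 2 response calls. The difference gave 32 calls with centred arrays, 55 with the mean of all probe sets, 36 with no replicate block and 2 with line means as single values, and 257 without 16 poorly correlated pairs of other lines, a setting chosen after the data were seen. Without the block the response gave 353 calls. Line means as single values left 7 vehicle calls. The cause was not tested for any of these. Values with no call turned sign in some settings. With centred arrays Apoa1 read -0.02 and the Slc13a3 difference -0.02, the latter -0.05 after quantile normalization, and without the poorly correlated pairs the Ehhadh difference was 0.01. Leaving out single pairs gave responses of -0.01 to 0.64 for Abcb11, -0.45 to 0.04 for Cd3e, -0.72 to 0.28 for Cyp7a1, -0.01 to 0.26 for Lipe, -0.08 to 0.67 for Myh4, -0.41 to 0.13 for Obp2a, -0.29 to 0.09 for Slc10a1 and -0.97 to 0.13 for Tk1. It gave differences of -0.10 to 0.75 for 2010003K11Rik, -0.15 to 0.58 for Acot3, -0.83 to 0.16 for Dbp, -0.40 to 0.42 for Ehhadh, -0.22 to 0.35 for Gstt2, -0.46 to 0.17 for Pklr, -0.01 to 0.22 for Slc13a3 and -0.13 to 0.42 for Slc20a1. The number of arrays limits all of these.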

Other observations

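Akr1c18, a steroid dehydrogenase, was singled out after its values were seen. It read 8.87, 8.19, 3.96 and 4.31 in the vehicle mice of pairs 1 to 4 and 8.44, 8.63, 3.96 and 9.49 in their TAK-875 mice, so both mice of pairs 1 and 2 were high and both of pair 3 low. Its response of 1.30 ± 2.61 (SD, n = 4; adjusted p = 0.00804 by limma) came from pair 4 alone, and the adjusted p was 0.994 without that pair. The noncoding RNA Meg3, which lies in the same imprinted cluster as Rian and was also chosen after its values were seen, had a vehicle level of 6.42, 6.88, 6.57 and 6.99 in CC007/Unc, 2.02 above the mean of the other lines (adjusted p = 7.3e-23 by limma). With TAK-875 it read 6.30, 6.14, 5.31 and 6.82, a response of -0.57 ± 0.54 (SD, n = 4; adjusted p = 0.112).

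Of 11 measured genes of antigen presentation by MHC class I and II, 2 fell, H2-DMb1 by 0.77 and Tapbp by 0.47, and 1 rose, H2-T23 by 1.05, where 2.41% of all genes fell and 2.34% rose. None of the 3 was called without pair 3 (adjusted p of 0.267, 0.574 and 0.674 by limma). The list median was -0.47, against 0.04 for all genes. The immunoproteasome subunit Psmb8 fell by 0.77 (adjusted p = 0.0228 by limma, 0.608 without pair 3), alongside Psme1. In fatty acid synthesis, 2 of 26 genes fell, Mid1ip1 by 1.16 and Mlxipl by 0.55, and Lpin2, a phosphatidate phosphatase, rose by 1.13, with its other 2 probe sets at 1.47 and 1.30. The shares of all genes are those just given, and 0 of the 26 were called without pair 3.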
